A study of Macaca mulatta with 304 samples.

Results

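Whole blood drawn 60 days after irradiation of the upper thorax was compared with blood drawn from the same animal before irradiation. The members were the rhesus macaques with gene counts for both draws, matched by the animal identifier in the labels, which gave 42 samples from 21 of the 28 animals of the series, beside 262 samples from other draws or animals. In the lower dose group (LD, 9.8 Gy) there were 12 animals, 6 males and 6 females, and in the higher dose group (HD, 10.7 Gy) there were 9 animals, 4 males and 5 females. The control draw was labelled 0 Gy and made on Day -2, so every animal was its own control. A further 3 HD animals had a Day 60 sample but no control sample here, and among the tests they entered only the comparison of Day 60 levels between doses. On Day 30 the series held samples of 16 HD and 12 LD animals, and on Day 60 of 12 HD and 12 LD animals. The HD animals here are thus those still sampled on Day 60.

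All animals were healthy adults of the Chinese sub-strain and all received a linear accelerator dose to the thorax after sedation and an antiemetic, followed by opioid analgesics in the first weeks. The study's methods also gave dexamethasone, a synthetic glucocorticoid, to animals that breathed too fast, and the labels do not say which animals had received it by Day 60. No sham-irradiated animals were part of this comparison. The effect of irradiation and the effects of time, repeated bleeding and medication therefore cannot be told apart in the change from control to Day 60. The LD and HD animals share the planned schedule of draws. Day 60 was, however, the last draw of 4 of 9 HD animals and of 0 of 12 LD animals. The part of this in the dose difference was not tested.

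Control libraries held 6676757 to 14609879 counts and Day 60 libraries 3888127 to 11130843. The number after the letter S in the library labels, whose meaning is not given in the sources used here, was 0 in 17 Day 60 libraries, 8 of 12 at LD and 9 of 9 at HD, and in 2 control libraries, both at HD. Y chromosome genes matched the labelled sex in all 42 samples. Leukocyte and platelet genes were high in every sample, with PTPRC, the pan-leukocyte marker CD45, at 708 to 1980 CPM. The lung surfactant gene SFTPC, by contrast, was listed at 0 in 36 of 42 samples and did not exceed 0.303 CPM. CPM is a count normalised to library size, without upper quartile scaling for these marker genes and after that scaling elsewhere.

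Neutrophils are short-lived phagocytes made in the bone marrow, and their maturation follows a sequence in which granule proteins such as lactoferrin, lipocalin 2 and matrix metalloproteinases are made in precursors and surface receptors for chemokines and formyl peptides appear late. B cells are long known to be among the most radiosensitive cells of blood, and they carry an antigen receptor whose signalling subunits are CD79A and CD79B. In the lung, the weeks after a thoracic dose are known for pneumonitis, an inflammation in which blood leukocytes enter the irradiated tissue. Each sample here is bulk RNA from whole blood, so that fewer cells of a type and less RNA per cell cannot be told apart.

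The proximal promoters of LCN2 and S100A9 are printed because these neutrophil genes had some of the largest dose differences. LCN2 (lipocalin 2, chromosome 15) encodes an iron-siderophore binding protein of neutrophil granules and S100A9 (chromosome 1) the larger calprotectin subunit of the neutrophil cytosol. Each run gives the 250 bases before the gene start in the RefSeq annotation of the Mmul_10 genome, 5′ to 3′ on the strand of the gene. Capitals mark matches, on either strand, to the octamer ATGCAAAT, a C/EBP-like pattern TTNNGCAA or an EBF-like pattern CCCNNGGG.
LCN2, chr15:12450082-12450331, minus strand: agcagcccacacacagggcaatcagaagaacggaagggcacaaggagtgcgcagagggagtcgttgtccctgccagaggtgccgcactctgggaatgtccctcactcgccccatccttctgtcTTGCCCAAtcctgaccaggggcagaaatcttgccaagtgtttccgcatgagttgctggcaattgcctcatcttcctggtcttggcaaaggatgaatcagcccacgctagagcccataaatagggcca
S100A9, chr1:97699440-97699689, minus strand: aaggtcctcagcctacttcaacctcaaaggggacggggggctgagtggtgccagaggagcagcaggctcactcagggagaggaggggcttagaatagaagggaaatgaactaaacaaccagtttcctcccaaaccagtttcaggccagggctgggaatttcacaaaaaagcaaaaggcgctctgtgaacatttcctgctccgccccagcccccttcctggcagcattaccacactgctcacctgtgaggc
LCN2 had a C/EBP-like match whose far edge lay 127 bases before the start. S100A9 had no match to these patterns or to the PU.1-like pattern GAGGAAGT in this window. Among 20782 promoters of protein-coding genes of the same length, 1.6% held the octamer, 8.1% the C/EBP-like pattern, 15.7% the EBF-like pattern and 1.8% the PU.1-like pattern. In the B cell list 3 of 25 promoters held the octamer, 2 the EBF-like pattern (8.0%), 1 the C/EBP-like pattern and 0 the PU.1-like pattern. Among 17 promoters of mature neutrophil genes 3 held the C/EBP-like pattern (17.6%), 2 the EBF-like pattern, 1 the octamer and 0 the PU.1-like pattern. These matches describe letters only.

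The change from control to Day 60 was first tested over both doses together. CSTA (cystatin A, a cysteine protease inhibitor of myeloid and epithelial cells) and SUCNR1 (the succinate receptor) rose, while CD79B and FCRL5 (an Fc receptor-like protein of B cells) fell. The test was edgeR's quasi-likelihood test, in which each animal formed a block, and a call needed both an adjusted p of 0.05 and 1.5-fold. Of 13751 genes 581 were called, 317 higher (2.31% of the genes tested) and 264 lower (1.92%). Of those 581 genes, 477 also passed at HD alone and 139 at LD alone. With a term for the range of library numbers, fitted over the whole series, CD79B was no longer called (-0.51, adjusted p = 0.161), and the B cell list went from 11 genes lower over both doses to 5. The higher share was 54.6% with upper quartile scaling and 67.6% with DESeq2 (462 of 683 called).

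CSTA in HD animals had 0.140, 0.840 and 1.54 CPM in controls (lowest, median and highest) and 2.23, 9.35 and 15.8 CPM on Day 60. In LD animals it had 0.0679, 0.963 and 2.25 CPM in controls and 0.398, 1.72 and 5.18 CPM on Day 60. It was higher on Day 60 in 20 of 21 animals, and at HD the groups did not overlap. Its log2 fold change over both doses was 2.15 ± 0.33 (SE, adjusted p = 0.000379).

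SUCNR1 rose over both doses. Its LD levels went from 1.68, 3.38 and 17.9 CPM to 5.15, 9.46 and 31.1 CPM, and its HD levels from 1.34, 2.52 and 6.42 CPM to 1.06, 5.74 and 56.4 CPM. The groups overlapped at both doses, but 12 of 12 LD and 7 of 9 HD animals were higher on Day 60. The log2 fold change was 1.85 ± 0.28 over both doses (adjusted p = 0.000379), and the HD change exceeded the LD change by 0.14 ± 0.57 on the log2 scale (adjusted p = 0.881), a difference too imprecise to show that the doses acted alike.

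The other genes with the largest rises and a like direction in at least 90% of animals were CAPNS2, SGMS2, OLIG2, PTMS, VSTM1, ZNF503, FLVCR2 and CLEC7A. CLEC7A (Dectin-1, the myeloid receptor for fungal beta-glucan) rose by a log2 fold change of 1.10 ± 0.15 (adjusted p = 0.000109) and was higher in 20 of 21 animals. SGMS2 (a sphingomyelin synthase) and FLVCR2 (a choline transporter) rose by 1.33 ± 0.22 and 1.11 ± 0.16. The largest falls with that constancy were in DENND2A, STOX1, CD79B, CDH20, DHDH, KNDC1, LRP5, SCML2, FCRL5 and ITGAD. With the library number term the calls of DHDH (-0.27, adjusted p = 0.478) and PTMS (0.39, adjusted p = 0.241) were lost, and without the animal block that of KNDC1 (adjusted p = 0.129). LRP5 (a Wnt co-receptor) had a log2 fold change of -0.97 ± 0.16 (adjusted p = 0.000491) and ITGAD (an integrin alpha subunit of leukocytes) one of -0.93 ± 0.16 (adjusted p = 0.00077).

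Eosinophil genes were higher over both doses, with 6 of 9 measured members past the test and none lower. EPX (eosinophil peroxidase, a granule enzyme) went from 0.0840, 3.56 and 93.2 CPM to 0.707, 15.1 and 64.3 CPM at LD, and from 0.0840, 1.42 and 20.9 CPM to 0, 9.63 and 83.05 CPM at HD. Its ranges overlapped widely, and 16 of 21 animals were higher (log2 fold change 1.54 ± 0.44, adjusted p = 0.0147), a call lost without the animal block (1.00, adjusted p = 0.303). The other members past the test were CEBPE, OLIG2, SMPD3, IL5RA (the interleukin-5 receptor subunit) and ALOX15. The median log2 fold change of the list was 0.86 against -0.03 for all genes tested. CEBPE, a transcription factor of granulocyte maturation that neutrophil precursors also use, differed between doses and is given again with the neutrophil genes.

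The test of the dose difference, the HD change minus the LD change, called far more genes than the pooled comparison. Of 13751 genes, 1440 had a larger log2 change at HD (10.5%) and 1731 a smaller one (12.6%). At HD alone 1415 genes rose (10.3%) and 1538 fell (11.2%). At LD alone 413 genes were called, 1.65% of those tested higher and 1.35% lower, and without the animal block 0.989% were called in either direction. Calls in both doses numbered 156, which was 37.8% of the LD calls and 5.3% of the HD calls, and 84 of them moved the same way.

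The median log2 change of all genes was -0.13 at HD with upper quartile scaling, -0.06 with TMM and -0.02 with DESeq2 size factors. The split of calls moved with it. At HD 47.9% of the calls were higher in the main fit, 60.1% with TMM (1660 higher, 1104 lower) and 63.9% with DESeq2 (1836 higher, 1036 lower). For the dose difference the shares were 45.4%, 59.9% (1742 higher, 1164 lower) and 60.2% (1910 higher, 1265 lower). At HD and in the dose difference, the counts of neutrophil, monocyte and B cell genes given next moved by less than 1.5 times with TMM or DESeq2.

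**Figure D1:**
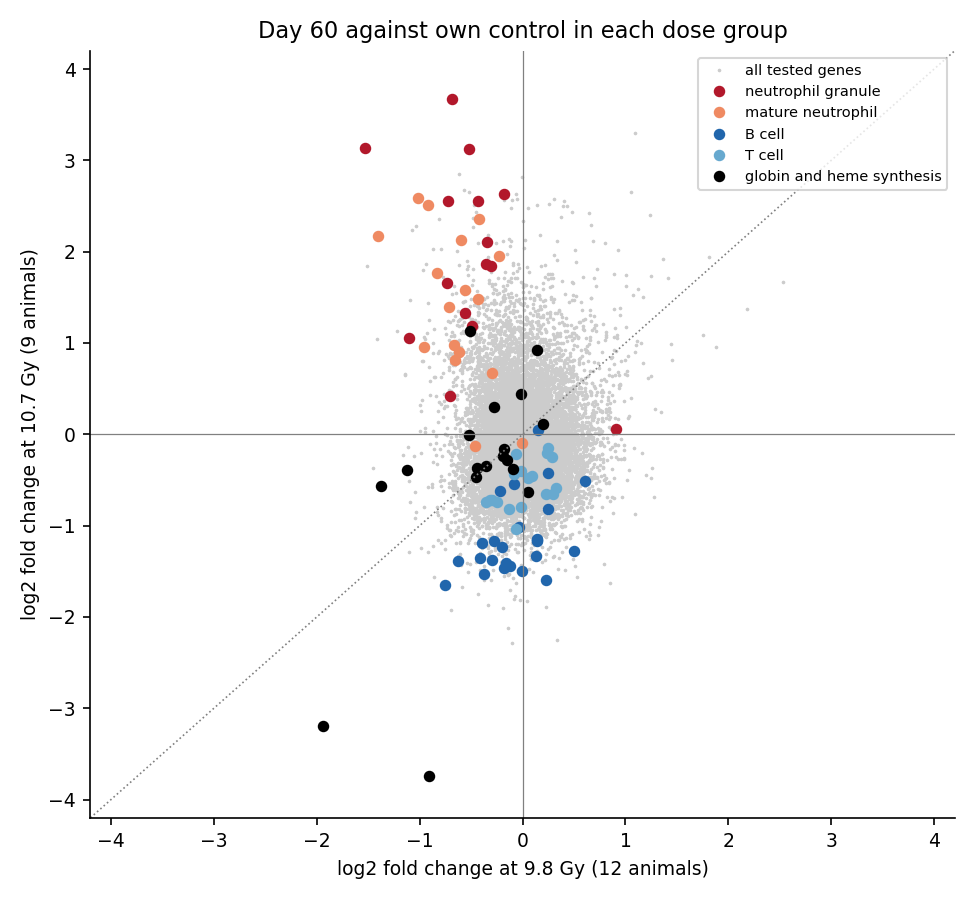
Fitted log2 fold change from control to Day 60 at 9.8 Gy (horizontal axis) and at 10.7 Gy (vertical axis), a point per gene tested, with neutrophil, B cell, T cell and globin and heme genes in colour and a dotted line where both changes are equal. Most neutrophil genes lie in the upper left, with S100A9 at -1.41 and 2.17, and B cell genes lie low, with MS4A1 at 0.22 and -1.60.

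Neutrophil granule genes rose at HD and did not rise at LD. At HD 11 of 15 measured members were higher and none lower, at LD none was higher and 2 were lower (MMP8 and LTF), and 13 of 15 had a larger change at HD. The median log2 change of the list was 1.87 at HD and -0.52 at LD, against -0.13 and -0.01 for all genes. Over both doses none of the 15 passed, or 7 without the animal block. The genes named first here were those with the largest dose difference, a choice made after their values were seen.

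LCN2 at HD went from 0.669, 1.34 and 4.04 CPM in controls to 1.71, 19.0 and 174 CPM on Day 60, and at LD from 0.802, 2.35 and 10.2 CPM to 0, 1.30 and 10.9 CPM. All 9 HD animals and 3 of 12 LD animals were higher on Day 60, with the HD ranges overlapping at the low end. The log2 fold change was 3.67 ± 0.54 at HD (adjusted p = 0.000445) and -0.68 ± 0.31 at LD (adjusted p = 0.149), and the dose difference was 4.30 ± 0.64 (adjusted p = 4.76e-05).

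MMP8 (neutrophil collagenase, of the specific granules) had the largest dose difference of the genes considered, 4.64 ± 0.82 on the log2 scale (adjusted p = 0.000214). Its HD levels went from 0.140, 0.952 and 1.62 CPM to 0.657, 4.64 and 124.2 CPM, and its LD levels from 0.258, 1.62 and 5.38 CPM to 0, 0.438 and 1.92 CPM. It was higher in 8 of 9 HD animals and in 3 of 12 LD animals. It fell at LD by 1.53 ± 0.35 on the log2 scale (adjusted p = 0.0153).

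MMP9 (gelatinase B, of the tertiary granules) had 61.7, 125.8 and 152 CPM in HD controls and 159, 817 and 3755 CPM on Day 60. In LD animals it had 35.2, 168 and 279 CPM in controls and 27.3, 122.5 and 405 CPM on Day 60. Every HD animal on Day 60 stood above every HD control, while the LD ranges overlapped throughout. The dose difference was 2.82 ± 0.43 (adjusted p = 5.8e-05). MPO and AZU1, which are made earlier in the lineage in primary granules, were also among the 11 that rose at HD, with MPO at a log2 fold change of 1.87 ± 0.30 (adjusted p = 0.000666) from a median of 0.841 to 2.98 CPM.

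Genes of the mature neutrophil moved in opposite directions at the 2 doses. At HD 14 of 17 measured members rose and none fell, at LD none rose and 7 fell, and 15 of 17 differed between doses. The 7 that fell at LD were S100A8, S100A9, CXCR1, CXCR2, CSF3R, FPR1 and PADI4, and all of them rose at HD. Without the animal block none of these 7 LD falls passed the test. Summed over the 17 genes, HD levels were 1937, 3650 and 5419 CPM in controls and 3213, 7431 and 18160 CPM on Day 60, higher in 9 of 9 animals, and LD levels were 1053, 3923 and 10280 CPM in controls and 757.6, 2260 and 7072 CPM on Day 60, higher in 2 of 12.

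S100A9 in HD animals went from 61.1, 224.6 and 626 CPM to 214.1, 1283 and 4726 CPM, and in LD animals from 63.3, 227.1 and 1080 CPM to 23.9, 94.6 and 477 CPM. Control levels were alike at both doses, all 9 HD animals rose and all 12 LD animals were lower. The log2 fold change was 2.17 ± 0.43 at HD (adjusted p = 0.00234) and -1.41 ± 0.20 at LD (adjusted p = 0.00197). Over both doses it was -0.02 ± 0.45, so that the pooled comparison did not show either change.

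CSF3R, the receptor for granulocyte colony-stimulating factor, went from 909.7, 1717 and 3004 CPM to 2098, 3031 and 6445 CPM at HD and from 512, 1915 and 5016 CPM to 354, 1134 and 3223 CPM at LD. It was higher in 8 of 9 HD animals and in 3 of 12 LD animals, with overlapping ranges at both doses. The dose difference was 1.65 ± 0.29 (adjusted p = 0.000198). FPR1, a receptor for bacterial formyl peptides, was higher in 9 of 9 HD animals and lower in 12 of 12 LD animals (dose difference 2.11 ± 0.26, adjusted p = 9.22e-06). CXCR1, a receptor for interleukin-8, differed by 1.91 ± 0.25 (adjusted p = 1.39e-05), and CEBPE by 2.26 ± 0.48 (adjusted p = 0.0012).

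The library number moved mostly with day and not cleanly with dose. Among animals whose Day 60 library had number 0, which leaves 8 LD and 9 HD animals, 3085 genes had a dose difference and the counts for the granule and mature neutrophil lists stayed at 13 and 15. Leaving out each animal in turn gave 12 to 13 of 15 granule genes and 14 to 15 of 17 mature neutrophil genes. Counts thinned to the smaller library of each animal gave 3109 genes with a dose difference.

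**Figure D2:**
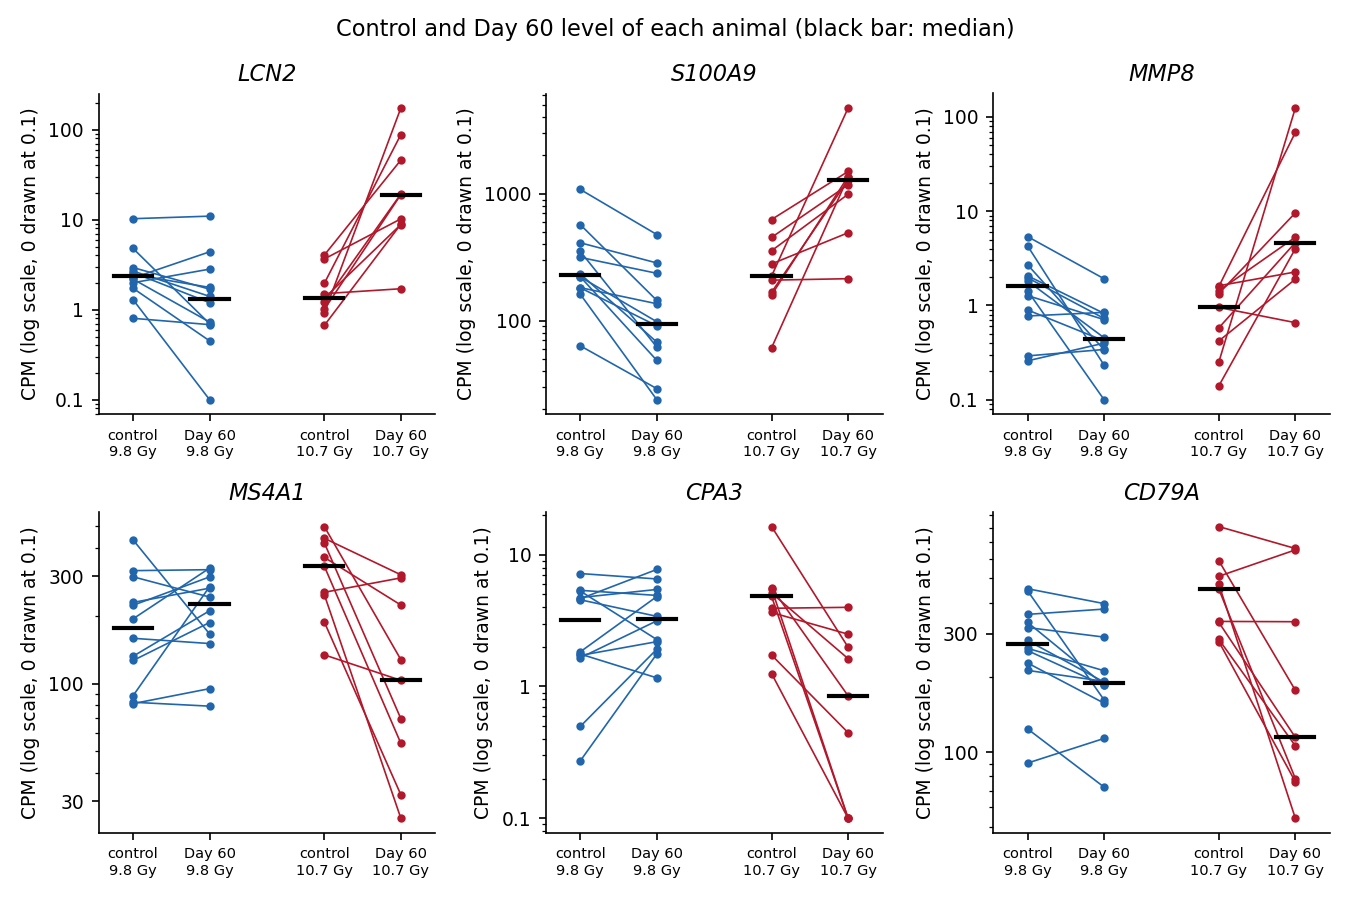
Level in CPM (log axis, values of 0 drawn at 0.1) of LCN2, S100A9, MMP8, MS4A1, CPA3 and CD79A in each animal's control and Day 60 sample joined by a line, by dose, with black bars at the medians. S100A9 lines climb in all 9 HD animals and descend in all 12 LD animals, and MS4A1 lines descend in 8 of 9 HD animals.

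Monocyte and macrophage genes rose with the neutrophil genes at HD. Of 20 measured members 12 rose at HD and none fell, 4 rose and 1 (CD14) fell at LD (1 rose without the animal block), and 10 had a larger and 1 a smaller change at HD. CD163, a scavenger receptor for haptoglobin-bound hemoglobin, went from 31.7, 60.3 and 103.4 CPM to 46.5, 173 and 519.8 CPM at HD and from 31.03, 54.5 and 125.4 CPM to 25.1, 40.2 and 113.7 CPM at LD. It was higher in 9 of 9 HD and 4 of 12 LD animals (dose difference 1.99 ± 0.29, adjusted p = 4.23e-05).

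FCGR1A, the high-affinity Fc gamma receptor CD64 of monocytes that activated neutrophils also carry, had 0.578, 0.924 and 3.87 CPM in HD controls and 2.102, 9.49 and 24.2 CPM on Day 60. In LD animals it had 0.436, 1.32 and 3.06 CPM in controls and 0.364, 1.09 and 3.26 CPM on Day 60. All 9 HD animals were higher, and the LD ranges nearly coincided. The dose difference was 2.23 ± 0.44 (adjusted p = 0.000583). CX3CR1, the fractalkine receptor of patrolling monocytes, was the member with a smaller change at HD, and it rose at LD.

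Genes of the interleukin-1 and interleukin-18 family rose at HD in 10 of 11 measured members, which were ligands, receptors, inhibitors and the inflammasome sensor NLRP3. The inhibitor IL18BP was the member not called at HD. At LD 1 rose (IL18) and 3 fell (IL1R2, IL1RAP and IL1B), none of which passed without the animal block, and 8 of 11 had a larger change at HD. IL1R2, the decoy receptor that binds interleukin-1 without signalling, went from 12.1, 20.2 and 51.97 CPM to 11.2, 119.8 and 717 CPM at HD and from 6.59, 39.3 and 132.3 CPM to 4.28, 21.96 and 66.2 CPM at LD. It was higher in 8 of 9 HD and 2 of 12 LD animals, and its dose difference was 3.18 ± 0.48 (adjusted p = 5.49e-05). IL1RN, the secreted receptor antagonist, rose from a median of 12.98 to 43.6 CPM at HD in 9 of 9 animals (log2 fold change 1.77 ± 0.21, adjusted p = 0.000159). The ligand IL1B rose less, by 0.67 ± 0.16 at HD (adjusted p = 0.00615).

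Among complement genes, 8 of 19 rose at HD, none was called at LD (2 lower with DESeq2) and 9 differed between doses, all with the larger change at HD. The anaphylatoxin receptors led. C3AR1 had 4.53, 11.5 and 15.7 CPM in HD controls and 16.4, 58.7 and 159 CPM on Day 60, with no overlap, and 4.28, 9.43 and 22.4 CPM in LD controls and 3.42, 12.9 and 26.1 CPM on Day 60. C5AR1 went from a median of 142 to 406 CPM at HD and LD controls lay at 59.5 to 354 CPM against a Day 60 median of 118.9 and highest value of 383 CPM. Their dose differences were 2.01 ± 0.29 (adjusted p = 3.1e-05) and 1.86 ± 0.25 (adjusted p = 2.08e-05). ITGAM, CFD, CFP, VSIG4 and C5AR2 were also among the members that rose at HD.

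C-type lectin receptors of myeloid cells showed both patterns. CLEC7A and CLEC12A rose at each dose (at LD, 0 members without the animal block, 1 with TMM, and 1 higher and 2 lower with DESeq2), while CLEC4D, CLEC4E, CLEC4A and CLEC5A rose at HD and had a larger change there than at LD, so that 6 of 7 measured members were higher at HD and 2 at LD. The dose difference of CLEC7A was 0.48 ± 0.27 (adjusted p = 0.188). Its levels on Day 60 were 22.6, 40.2 and 266 CPM at LD and 30.7, 63.1 and 93.2 CPM at HD, against 8.77, 26.2 and 150.4 CPM and 12.6, 22.9 and 39.3 CPM in controls.

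Genes that respond to glucocorticoids, to cytokine feedback and to low oxygen were called mostly at HD, as were genes at large, of which 10.3% rose and 11.2% fell there. Of 14 glucocorticoid-responsive genes 6 rose and 1 fell at HD, 1 fell at LD, and 8 had a larger and 1 a smaller change at HD. DUSP1, a phosphatase of MAP kinases, went from a median of 203 to 402 CPM at HD and from 230.4 to 149.7 CPM at LD (dose difference 2.20 ± 0.37, adjusted p = 0.000149). FKBP5, a widely used reporter of glucocorticoid exposure, had a median of 228 CPM in HD controls and 261 CPM on Day 60, was higher in 4 of 9 animals and did not pass the test (log2 fold change 0.28 ± 0.23, adjusted p = 0.37). ZBTB16 and PER1, which glucocorticoids also induce, rose at HD by 1.22 ± 0.43 (adjusted p = 0.0392) and 1.10 ± 0.40 (adjusted p = 0.0453). The part of dexamethasone in these values was not tested, since the labels do not give it.

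Of 16 genes of SOCS and STAT feedback, 6 rose and 2 fell at HD, and none was called at LD. SOCS3, an inhibitor of interleukin-6 and G-CSF signalling, went from 12.8, 25.9 and 56.8 CPM to 42.4, 80.7 and 189.9 CPM at HD and from a range of 9.36 to 51.6 CPM to one of 9.02 to 44.7 CPM at LD. All 9 HD animals and 3 of 12 LD animals were higher (dose difference 1.81 ± 0.26, adjusted p = 3.31e-05). Of 19 genes of hypoxia and glycolysis 8 rose at HD, among them PFKFB3 and HK2 of glycolytic control, LDHA and ALDOA, and none was called at LD. The immediate early genes FOSB and ATF3 rose over both doses, by 0.91 ± 0.15 (adjusted p = 0.000491) and 0.60 ± 0.13 (adjusted p = 0.00315).

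**Figure D3:**
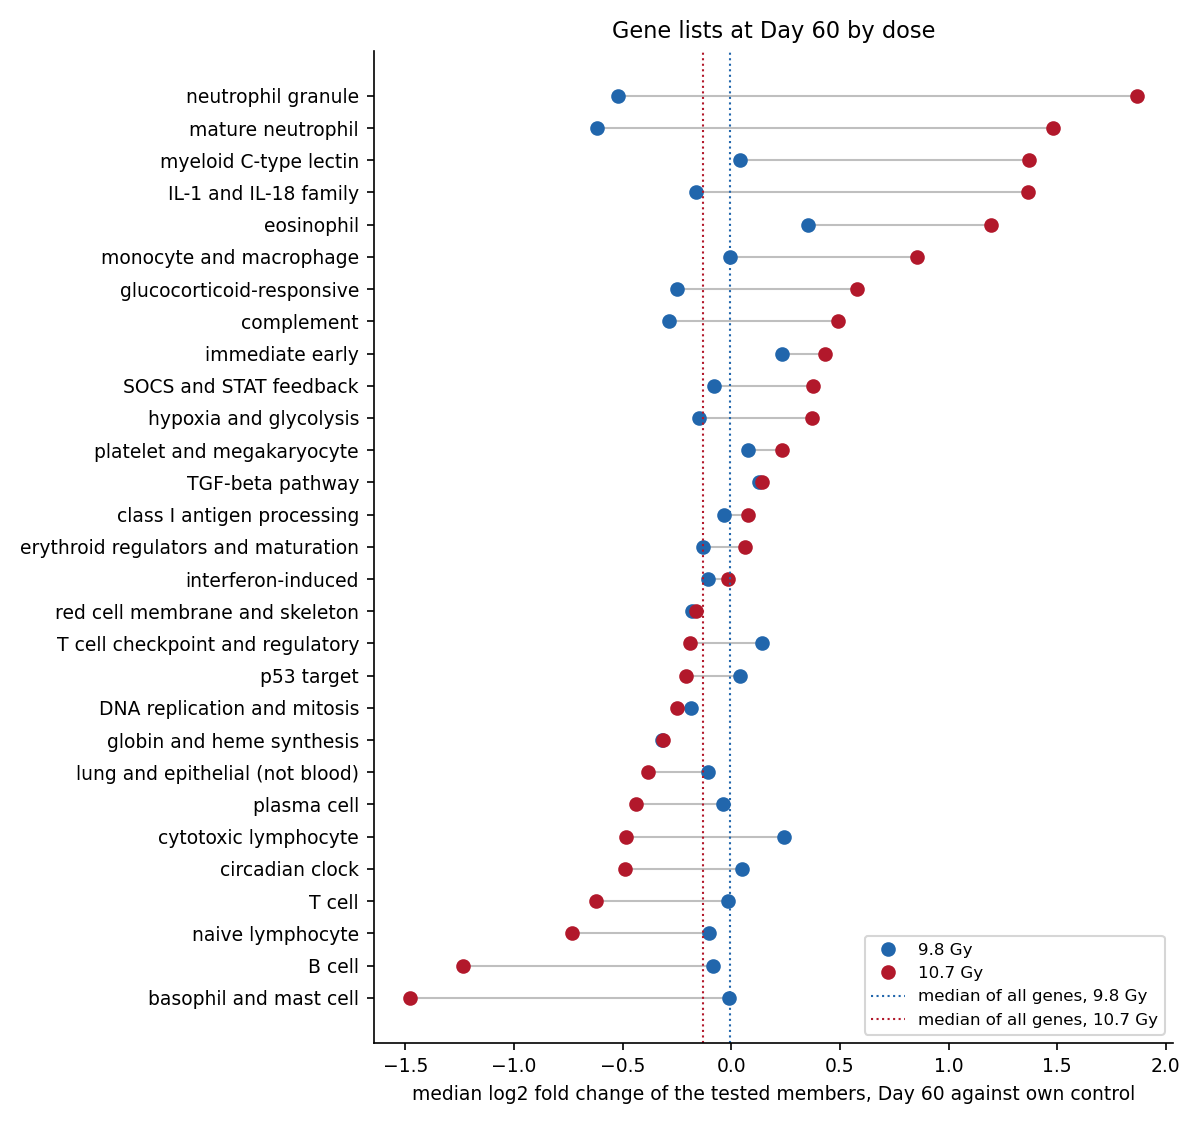
Median fitted log2 fold change from control to Day 60 of the tested members of 29 gene lists, at 9.8 Gy and at 10.7 Gy, with dotted lines at the median of all genes (-0.01 and -0.13). The granule, mature neutrophil, interleukin-1 and C-type lectin lists stand highest at 10.7 Gy, and the basophil and B cell lists lowest.

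B cell genes fell at HD. Of 25 measured members 20 fell and none rose at HD, 2 fell at LD (CD79B and FCRL5), and 17 had a lower change at HD. The list's median log2 change was -1.23 at HD and -0.08 at LD. Without the animal block 7 members passed at HD and 5 in the dose difference, and leaving out each animal in turn gave 14 to 21 members in the dose difference.

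MS4A1, the B cell surface protein CD20, had 134.1, 332 and 499 CPM in HD controls and 25.2, 103.3 and 305 CPM on Day 60, and 81.4, 177 and 436 CPM in LD controls and 79.3, 226.6 and 326 CPM on Day 60. It was lower in 8 of 9 HD animals and higher in 8 of 12 LD animals, with overlap in both groups. The log2 fold change was -1.60 ± 0.34 at HD (adjusted p = 0.00336) and 0.22 ± 0.17 at LD (adjusted p = 0.403), and the dose difference was -1.82 ± 0.39 (adjusted p = 0.00131).

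CD79B, by contrast, fell at each dose. It went from 109.9, 301 and 404 CPM to 27.6, 58.7 and 328 CPM at HD and from 52.6, 189 and 329.8 CPM to 30.9, 102 and 201 CPM at LD, and was lower in 19 of 21 animals. The log2 fold change was -1.65 ± 0.39 at HD (adjusted p = 0.00619) and -0.75 ± 0.15 at LD (adjusted p = 0.00797), and the dose difference of -0.90 ± 0.42 did not pass (adjusted p = 0.106). Its partner CD79A had a dose difference of -0.94 ± 0.33 (adjusted p = 0.0355), a call lost with TMM (adjusted p = 0.0577), without the animal block (-0.44, adjusted p = 0.563), in Day 60 libraries of number 0 (adjusted p = 0.126) and on leaving out any of 8 animals, B2505 among them. It had Day 60 medians of 114.8 CPM at HD and 189 CPM at LD against 453 and 272 CPM in controls. PAX5 and EBF1, transcription factors of B cell identity, were among the 17 with a lower change at HD, and PAX5 went from a median of 287 to 62.7 CPM there.

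The HD animals were not alike in B cell genes. Summed over the 25 genes, B2505 went from 3090 to 624.7 CPM, B2004 from 2382 to 659.7, B2508 from 4070 to 961.2, B2001 from 2549 to 996.6, B2003 from 2146 to 1150 and B2501 from 4079 to 1479 CPM. The other animals changed little: B2002 went from 2883 to 2597, B2502 from 4333 to 4244 and B2504 from 4782 to 4808 CPM. At LD the sums were 907.7, 2317 and 3661 CPM in controls and 1083, 2137.5 and 3690 CPM on Day 60, higher in 4 of 12. Plasma cell genes were called less, with 2 of 14 lower at HD (CD38 and POU2AF1) and none at LD. These counts lay near the share of all genes that fell, 11.2% at HD and 1.35% at LD.

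T cell genes fell at HD to a smaller extent. Of 18 measured members 9 fell at HD and none was called at LD, and 6 had a lower change at HD. CD28, the costimulatory receptor, went from a median of 75.4 to 33.6 CPM at HD, lower in 9 of 9 animals, and from a median of 94.8 to 87.98 CPM at LD (dose difference -0.97 ± 0.26, adjusted p = 0.00685). CD3E, a chain of the T cell receptor complex, did not pass at HD (log2 fold change -0.48 ± 0.19, adjusted p = 0.0662). Genes of naive lymphocytes fell at HD in 8 of 12, and IL7R, the interleukin-7 receptor, went from a median of 617 to 298 CPM (log2 fold change -0.94 ± 0.19, adjusted p = 0.00282).

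IKZF2 (Helios, a factor of regulatory and natural killer cells) separated the HD groups entirely, with 71.3, 101.4 and 121.7 CPM in controls and 23.8, 50.5 and 57.9 CPM on Day 60. In LD animals it had 66.8, 125.1 and 185 CPM in controls and 53.2, 131.9 and 206.5 CPM on Day 60. The dose difference was -1.29 ± 0.18 (adjusted p = 2.58e-05). Of 23 cytotoxic lymphocyte genes 4 fell and 1 rose at HD, 1 rose at LD (KLRG1), and 8 had a lower change at HD. Among all genes 11.2% fell and 10.3% rose at HD, and 12.6% had a lower change there. GZMB (granzyme B) fell over both doses by 0.61 ± 0.15 on the log2 scale (adjusted p = 0.00654), a call lost with TMM and DESeq2, where it fell just short of 1.5 fold, and with the library number term (-0.32, adjusted p = 0.209), and its dose difference did not pass the test (-0.33 ± 0.29, adjusted p = 0.416). Without the animal block 3 of the 23 genes had a lower change at HD.

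Basophil and mast cell genes were the lowest list at HD, with 5 of 9 members lower, 1 higher (KIT) and a median log2 change of -1.48. In the dose difference 5 were lower, or 3 without the animal block. FCER1A, the IgE-binding chain of the high-affinity IgE receptor, had 2.46, 4.92 and 16.96 CPM in HD controls and 0.523, 1.13 and 3.94 CPM on Day 60, and 0.996, 4.70 and 14.8 CPM in LD controls and 1.34, 4.93 and 7.45 CPM on Day 60. CPA3, the carboxypeptidase of basophil and mast cell granules, went from 1.25, 4.83 and 16.4 CPM to 0, 0.850 and 3.99 CPM at HD and from 0.273, 3.19 and 7.21 CPM to 1.16, 3.28 and 7.74 CPM at LD. FCER1A was lower in 9 of 9 HD animals and CPA3 in 8 of 9, whereas at LD 6 and 7 of 12 animals were higher. Their dose differences were -1.98 ± 0.42 (adjusted p = 0.0013) and -2.58 ± 0.58 (adjusted p = 0.00184).

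Some genes rose at LD and fell at HD. TENM1 (a teneurin, a cell adhesion protein) went from 1.55, 7.08 and 15.8 CPM to 6.33, 17.9 and 25.6 CPM at LD, higher in 12 of 12 animals, and from 5.10, 6.98 and 11.9 CPM to 0.606, 4.88 and 7.94 CPM at HD, lower in 8 of 9. The log2 fold change was 1.09 ± 0.21 at LD (adjusted p = 0.00797) and -0.88 ± 0.27 at HD (adjusted p = 0.0224). Among genes with a mean of at least 1 CPM and with 1 direction in 8 or more of 9 HD animals, the others with the largest lower change at HD were HBA, PPFIA2, SLC24A2, EPDR1, PRLR, RAB30 and PFDN4, and those with the largest higher change, beside MMP8, LCN2, S100A8 and S100A9, were PGLYRP1, DYSF, S100A12, GUCY2C, SLC28A3 and SLC2A5. Their dose differences ran from -2.83 to -1.90 and from 3.31 to 4.64 on the log2 scale.

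Lists that are often followed after irradiation had few calls over both doses on Day 60, as had genes at large (2.31% higher and 1.92% lower). Of all genes 10.3% rose and 11.2% fell at HD. In the dose difference 10.5% of all genes were higher and 12.6% lower. Of 26 p53 target genes 1 rose (TP53INP1) and 1 fell (PHLDA3) over both doses, with 3 higher and 2 lower at HD. In the dose difference 5 p53 targets were higher (SESN2, GADD45A, BTG2, MDM2 and CDKN1A) and 4 lower (ZMAT3, CCNG1, ASCC3 and TNFRSF10B), or 1 and 2 without the animal block. TP53INP1 was higher in 20 of 21 animals (log2 fold change 0.76 ± 0.13, adjusted p = 0.00065) and PHLDA3 was lower in 18 of 21 (-0.61 ± 0.13, adjusted p = 0.00305). With TMM or DESeq2 the count at HD was 5 higher and 0 lower, and PHLDA3 was not called over both doses (-0.58 and -0.55). With the library number term PHLDA3 was at -0.29 (adjusted p = 0.377). None of 22 platelet genes was called at either dose or in the dose difference by edgeR, and DESeq2 called 2 higher at HD. Of 29 genes of DNA replication and mitosis 2 fell at HD (MCM3 and AURKA), and of 37 interferon-induced genes PLSCR1 rose over both doses while 3 rose and 5 fell at HD, or 4 and 3 with DESeq2, and 5 were higher and 2 lower in the dose difference, or 2 and 1 without the animal block. Of 14 TGF-beta pathway genes 1 rose at HD (ENG). Of 14 lung and epithelial genes only 4 passed the filter on low counts, and KRT18 fell over both doses (-0.61 ± 0.21, adjusted p = 0.0375), a call lost with TMM, with DESeq2, without the animal block and with the library number term (-0.23, adjusted p = 0.69).

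The remaining lists were mixed. Of all genes 10.3% rose and 11.2% fell at HD, and 10.5% were higher and 12.6% lower in the dose difference. The HD counts of the class I, red cell membrane and erythroid lists lay near these shares. Of 16 circadian clock genes BHLHE41 fell over both doses, PER1 rose and 3 fell at HD, and in the dose difference 1 was higher and 7 were lower, or 1 and 4 without the animal block. Of 14 checkpoint and regulatory genes of T cells IL2RA fell over both doses and 4 fell at HD. Of 14 genes of class I antigen processing 2 rose at HD (B2M and PSMB9). Among 18 red cell membrane genes ICAM4 fell at LD and SPTB rose at HD, and of 21 erythroid regulators NFE2 and GATA1 rose at HD and STRADB fell at each dose. The STRADB fall over both doses was lost with the library number term (adjusted p = 0.32) and without the animal block (adjusted p = 0.429).

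Globin genes fell over both doses, with 4 of 18 genes of globin and heme synthesis lower (HBB, HBA, HBQ1 and HBM), and their levels moved with the library number. HBB (beta globin, chromosome 14) had a log2 fold change of -2.54 ± 0.54 (adjusted p = 0.00282), or -1.41 (adjusted p = 0.0657) without the animal block. Of the list 1 gene was lower without the block, and 1 was higher and 2 lower with the library number term. On Day 60 HBB lay at 2.27 to 52.1 CPM in the libraries with number 0 and at 136.1 to 289 CPM in the other 4. In controls it lay at 3.64 to 20.1 CPM in the libraries with number 0 and at 23.2 to 327 CPM in the others. These sets hold every animal with the draw, also those without the other draw. HBA on Day 60 lay at 0.606 to 21.2 CPM and at 18.1 to 42.8 CPM in these sets. In the 2 animals with number 0 in both draws, which were HD animals, the HBB change was 0.65. The part of the library number in this fall was not tested. HBA differed between doses by -2.83 ± 0.65 (adjusted p = 0.00235), and HBB did not pass (-1.22 ± 1.02, adjusted p = 0.385).

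Day 60 levels at HD varied between animals, and so did how long they were sampled. This is a description of 12 HD animals with a Day 60 sample, 3 of them without a control, and carries no test. The 9 HD animals whose last sample fell between Day 60 and Day 94 had summed mature neutrophil levels of 5608 to 18160 CPM on Day 60. The other HD animals, last sampled on Day 120, Day 129 and Day 270, had 2903, 2787 and 3213 CPM. These are levels and not changes from control. Of these 3 only B2502, sampled to Day 270, had a control, and it was above it, while B2003, last sampled on Day 60, went from 4192 to 5608 CPM and B2004, last sampled on Day 71, from 5419 to 7768 CPM. At LD B1504, the animal with the earliest last sample (Day 102), had the highest Day 60 sum, 7072 CPM, but its control stood at 10280 CPM. The remaining LD animals lay at 757.6 to 4563 CPM. B2505, last sampled on Day 60, had the highest sum of granule genes (7169 CPM against 287.6 in its control) and of mature neutrophil genes, and the lowest B cell sum. Per the study's methods a final sample was drawn when an animal was euthanized, but the labels do not say why each animal's series ended.

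**Figure D4:**
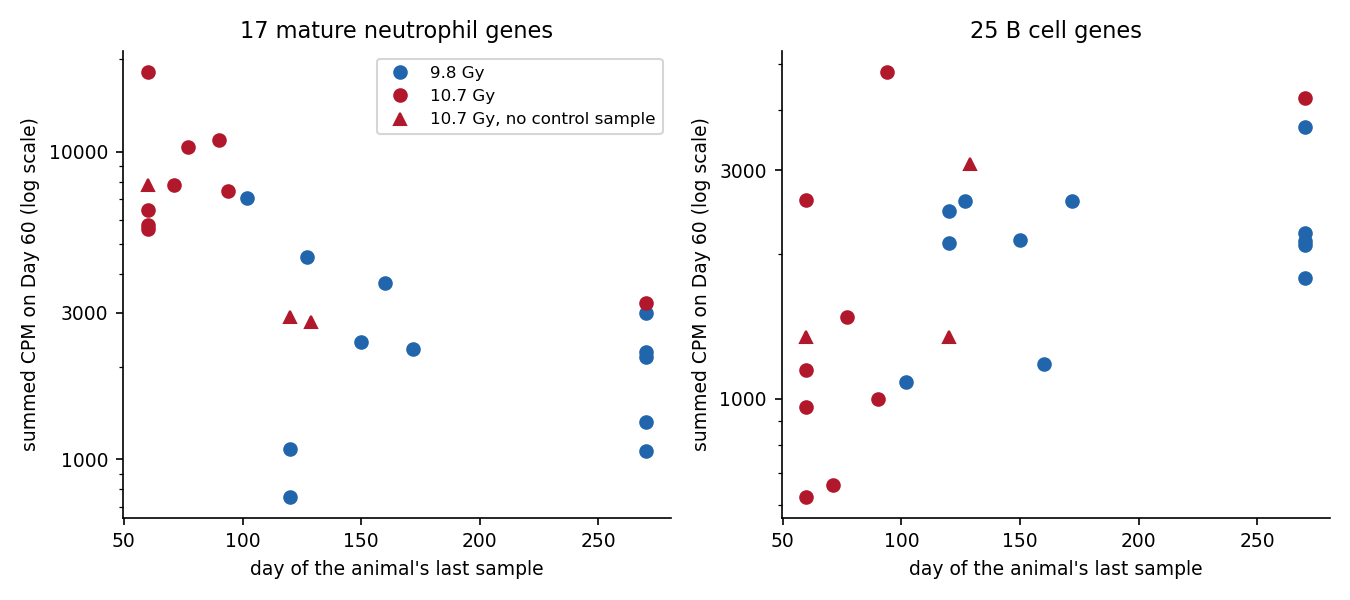
Day 60 sum in CPM of 17 mature neutrophil genes and of 25 B cell genes (vertical axes, log scale) against the day of each animal's last sample (horizontal axis) in 24 animals, coloured by dose, with triangles for HD animals without a control sample. The 9 HD animals last sampled by Day 94 lie at 5608 CPM or above for the neutrophil sum, and the 3 HD animals sampled longer lie at 2787 to 3213 CPM.

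Levels on Day 60 itself, without reference to the control, differed between doses in 24 animals for 2519 genes, 1277 higher at HD (9.29%) and 1242 lower (9.03%). Control levels in 24 animals, of which 3 HD animals had no Day 60 sample, differed between doses for 0 genes by edgeR, with 1160 genes at an unadjusted p under 0.05. The sexes did not differ in their Day 60 change in any gene after adjustment, with 142 genes at an unadjusted p under 0.05 by edgeR, and DESeq2 also called 0.

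Few genes passed the test of the dose difference on earlier days. The change from control to Day 40 differed between doses in the same 21 animals for 2 genes, 1 larger and 1 smaller at HD (0.00727% each), with 1877 genes at an unadjusted p under 0.05. The change from control to Day 30 differed for 0 genes, with 191 at an unadjusted p under 0.05. The fitted Day 40 differences of neutrophil genes were still sizeable, at 1.88 ± 0.46 for LCN2, 1.74 ± 0.43 for S100A8 and 1.45 ± 0.39 for S100A9 on the log2 scale, though none of these passed the adjusted test. These comparisons share their control samples with the Day 60 change. The change from Day 40 to Day 60 differed between doses for 1314 genes, 689 with a larger change at HD (5.01%) and 625 with a smaller one (4.55%). IL1R2, FPR1 and S100A9 were among them, with differences of 2.54 ± 0.64, 1.51 ± 0.37 and 2.22 ± 0.43 on the log2 scale (adjusted p = 0.0186, 0.016 and 0.00633).

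S100A9 over all animals sampled on each day had HD medians of 187.9, 280.5, 631.6 and 1229 CPM at control, Day 30, Day 40 and Day 60. The LD medians were 227.1, 117.8, 269.9 and 94.6 CPM. LCN2 had HD medians of 1.42, 3.25, 3.70 and 9.55 CPM on those days and LD medians of 2.35, 2.84, 2.06 and 1.30 CPM. The HD medians were highest on Day 60 for both genes among these 4 draws, while the LD medians of both were lowest there. The LD medians were higher later, at 993.5 CPM for S100A9 and 8.65 CPM for LCN2 in 11 animals on Day 120. The 3 HD animals sampled on Day 120 had medians of 729.1 and 6.72 CPM. On Day 90 the 5 HD animals still sampled had an S100A9 median of 303.4 CPM and the LD animals one of 213.8 CPM. On Day 60 these 5 HD animals had 75.5, 214.1, 280.8, 990.1 and 1350 CPM. The HD medians of Day 60 and Day 90 are therefore of different sets of animals and are not a change within animals.

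**Figure D5:**
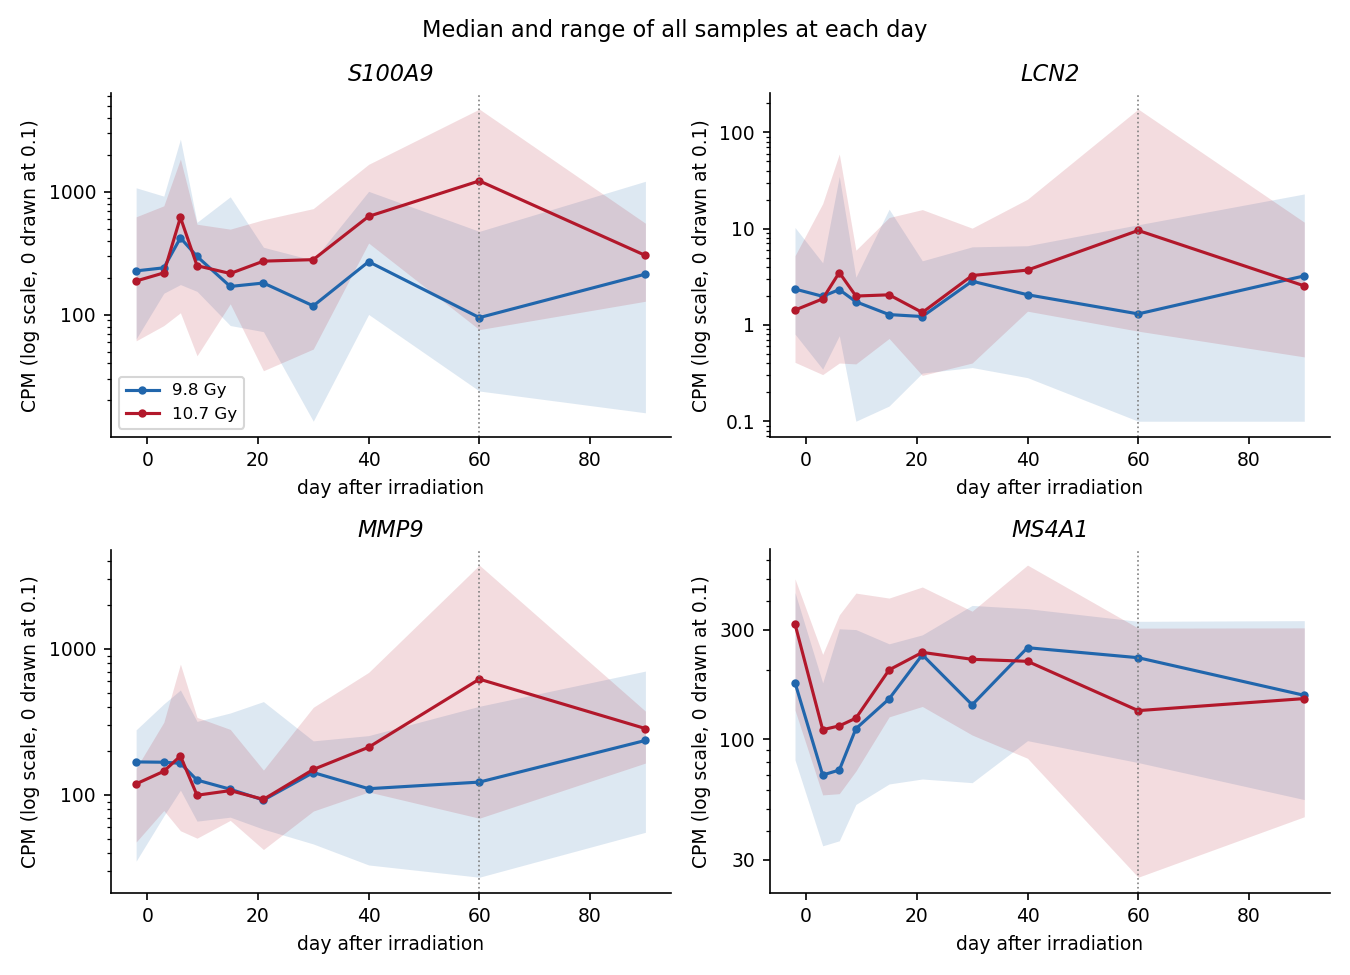
Median level in CPM (points, log axis) and range over samples (shaded) of S100A9, LCN2, MMP9 and MS4A1 by day from control to Day 90, for each dose, for days with at least 3 samples. The 10.7 Gy median of S100A9 reaches 1229 CPM on Day 60, when the 9.8 Gy median is 94.6 CPM. The 10.7 Gy points are of 12 animals on Day 60 and of 5 on Day 90.

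Over both doses, Day 60 was also set against Day 40 in the same animals. There 366 genes were called, 0.974% of those tested higher on Day 60 and 1.69% lower. The higher share was 36.6%, or 56.8% of 264 calls without the animal block. The list with the most falls was that of interferon-induced genes, 19 of 37, among them HERC5, IFI44L, IFIT1, MX1 and ISG15, with a median log2 change of -0.59. HERC5, an ISG15 ligase, was lower in 19 of 21 animals (-1.50 ± 0.22, adjusted p = 0.000511). Of 29 replication and mitosis genes 8 fell, among them TOP2A and MKI67 (-0.66 ± 0.12, adjusted p = 0.00109). Rises were ranked among genes with a mean of at least 1 CPM and 1 direction in at least 90% of animals. The largest of these were in DDIT4, an inhibitor of mTOR signalling (0.96 ± 0.19, adjusted p = 0.00223), GPX2 (0.80 ± 0.14, adjusted p = 0.00118) and CIDEB (0.76 ± 0.12, adjusted p = 0.000511). HBB and HBA fell by 4.63 ± 0.63 and 3.83 ± 0.35 on the log2 scale (adjusted p = 0.000239 and 3.8e-07). The library numbers of the Day 40 samples were not set beside these values.

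From Day 60 to Day 90, in the 15 animals with both draws, 18 genes were higher on Day 90 (0.131%) and 4 lower (0.0291%). MGST1 (microsomal glutathione transferase) rose by 1.30 ± 0.26 (adjusted p = 0.0425), GPR33 by 1.22 ± 0.22 (adjusted p = 0.0328) and VSTM1, an inhibitory receptor of myeloid cells, by 1.19 ± 0.23 (adjusted p = 0.0328). TSHZ3, TPPP and FKBP4 fell, by 1.17 ± 0.24, 0.86 ± 0.16 and 0.68 ± 0.14 on the log2 scale (adjusted p = 0.0425, 0.0328 and 0.0425). Each was changed the same way in 14 of 15 animals, where naming a gene required 1 direction in at least 90% of animals. These 15 animals hold 12 LD animals and 3 HD animals, so the Day 90 draw tells little about HD.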

How the data were processed

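Whole blood was collected in RNAprotect tubes, and total RNA libraries depleted of ribosomal RNA were sequenced as paired reads. The authors trimmed reads with cutadapt 2.10, aligned them to Mmul_10 with STAR 2.7.6a and counted them per gene with Subread 2.0.1, and deposited raw counts for 21070 genes in 304 samples. Whether counting used strand is not given in the sources used here, so antisense and overlapping genes are uncertain. They also deposited log2 values for 16730 genes, scaled by the authors to the upper quartile, used here only as an alternative.

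Genes with at least 3 counts in 80% of the 304 samples were tested (13751 genes). Counts were scaled to the upper quartile and fitted with edgeR 4.0.16 (quasi-likelihood test, R 4.3.3) with the animal as a block, and p-values were adjusted by the Benjamini-Hochberg method. The study's own test was a t-test on scaled values, followed by Dunnett's test for the time course. The count test replaced it. The paper also describes a conditional quantile normalisation for GC content, which was not applied to the counts here. A gene was called at an adjusted p of 0.05 and a fitted change of 1.5 fold. A prior count of 2 entered the log2 levels of each animal and not the fitted changes. Levels are CPM, counts normalised to library size, after that scaling, given as the lowest, median and highest sample. The levels of PTPRC and SFTPC were not scaled to the upper quartile. Control libraries held 6676757 to 14609879 counts and Day 60 libraries 3888127 to 11130843, which sets the precision of low genes.

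Same-animal pairs come from the animal identifier in the labels. The correlation of their deviations from the group means had a median of 0.33 (0.05 to 0.73), was above 0.1 in 20 of 21 animals and had a median of -0.02 between different animals. Each animal is a replicate. In the blocked fits p-values rest on the spread of the within-animal changes. In the comparisons of levels between doses they rest on the spread of levels between animals.

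The named genes were, per direction, the 10 largest changes past both thresholds with at least 1 CPM in the higher group and the same direction in at least 90% of animals. To these were added 2 members and the most abundant member of each list, and 3 genes per direction from the Day 40 and Day 90 comparisons. The same limits on CPM and direction held for those 3, in the animals compared. Genes with a symbol starting with LOC were not named. Genes named for their dose difference were, per direction, the 10 largest with at least 1 CPM and the same direction in at least 8 of 9 HD animals. These and other list members were chosen after their values were seen. The members and lists were chosen with earlier results of these data known. Alternatives were TMM scaling, DESeq2 1.42.0, limma 3.58.1 on the deposited log2 values, other count filters, no animal block, each animal left out, and subsets by library number. For the dose difference, the subsets by library number, the thinned counts and leaving out each animal were added after seeing the data, as were the subsets by library number at each dose. The code was tested on simulated counts. Promoters were read from the Mmul_10 genome with its RefSeq annotation. Some genes and sequences are not reported here.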

Additional observations from a re-analysis of the deposited data

Results flagged for a closer look

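The Day 60 change differed between doses, by edgeR's quasi-likelihood test of the difference, in 3171 genes. Among the genes named by the rules, the HD change exceeded the LD change most, on the log2 scale, for MMP8 4.64, LCN2 4.30, PGLYRP1 3.63, S100A8 3.60, S100A9 3.58, DYSF 3.47, S100A12 3.43, GUCY2C 3.35, SLC28A3 3.31, SLC2A5 3.31, MMP9 2.82, CEBPE 2.26, FCGR1A 2.23, CSTA 2.21, MGST1 2.15 and C3AR1 2.01. The excess was smaller for IL1RL1 1.96, C5AR1 1.86, SOCS3 1.81, IL1RN 1.71, CSF3R 1.65, SGMS2 1.63, IL1RAP 1.58, ADGRE1 1.54, VSTM1 1.51, CFD 1.42, PLSCR1 1.41, VCAN 1.35, ALDOA 1.19, TXNIP 0.97, STAT5B 0.96, DDIT4 0.91 and FLVCR2 0.90. The HD change was lower than the LD change for HBA -2.83, CPA3 -2.58, PPFIA2 -2.48, SLC24A2 -2.17, EPDR1 -2.11, PRLR -2.10, FCER1A -1.98, TENM1 -1.96, RAB30 -1.95, PFDN4 -1.90, IKZF2 -1.29, DENND2A -1.22, CD38 -1.16, IL3RA -1.07, CD79A -0.94, BCL11B -0.89, TSHZ3 -0.83, TPPP -0.80 and BHLHE41 -0.74. All of these differences passed an adjusted p of 0.05 with all animals. The call was lost on leaving out any of 17 of 21 animals for PFDN4, 8 for CD79A and 7 for IL3RA, and on leaving out 1 of several for IL1RL1, BHLHE41, DDIT4 and TSHZ3 and B2505 for TPPP.

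In 97 named genes, the log2 change of each HD animal was compared with that of the other HD animals by Dixon's criterion, and 2 genes had an animal standing apart, where chance gives about 1 in 20. EPB41, which encodes a protein of the red cell skeleton, was changed by 1.51 in B2501 and by -1.17 to 0.13 in the other HD animals. PFDN4, a prefoldin subunit, was changed by 2.38 in B2003, whose control library had number 0, and by -3.06 to -1.21 in the others.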

How the results depend on the processing

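Fits without the animal block, which ignore the pairing of draws, called 544 genes over both doses, 2352 at HD, 2147 for the dose difference, 0 for sex, 264 for Day 60 against Day 40 and 0 for Day 60 against Day 90, where the blocked fits called 581, 2953, 3171, 0, 366 and 22. At LD they called 0.989% of the genes tested, against 3.00% with the block. DESeq2 called 139 genes for Day 60 against Day 90. Among animals whose Day 60 library had number 0, 1093 genes were called over both doses and 7.43% of the genes tested at LD. Leaving out each animal gave 420 (without B2505) to 720 (without B1505) genes over both doses and 2429 (without B2505) to 3834 (without B2003) for the dose difference. Of 52 named dose differences, DESeq2 kept the call of 51, TMM 47, thinned counts 51, Day 60 libraries with number 0 alone 42 and the fit without a block 42, and 8 lost it on leaving out at least 1 animal. None changed direction under these alternatives. The cause of these shifts was not tested.

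Some named genes changed direction from their main fit over both doses. The 2 animals with library number 0 in both draws were HD animals. Their values therefore differ from the main fit in dose as well as in library number, and these were not told apart. In the 2 animals with library number 0 in both draws the log2 changes were PTMS -1.10, STOX1 0.81, DHDH 0.16, HBB 0.65, STRADB 0.072, BNIP3L 0.34, IL2RA 0.15, IL1RAP 0.67, ADORA3 -0.47, TXNIP 0.21, MKI67 0.23, BHLHE40 -0.40, TGFB1 -0.59, STAT5B 0.008, AGER -0.64, DDIT4 -0.26, GPX2 -0.11, CIDEB -0.66, HERC5 0.85 and TSHZ3 -1.10. With a term for the range of library numbers, fitted over the whole series, they were IL1RAP 0.22, TXNIP 0.12, TGFB1 -0.057, STAT5B 0.037, AGER -0.019, CIDEB -0.10 and TSHZ3 -0.35. With DESeq2 they were BNIP3L 0.003, TXNIP 0.012 and STAT5B 0.023, and with TMM STAT5B 0.009. Without the animal block they were BNIP3L 0.008, TXNIP 0.078, STAT5B 0.013 and AGER -0.021. With Day 60 libraries of number 0 alone they were IL1RAP 0.044, STAT5B 0.064 and TSHZ3 -0.060. Leaving out each animal gave ranges that crossed 0: BNIP3L -0.10 to 0.026, CSF3R -0.051 to 0.12, IL1RAP -0.15 to 0.001, TXNIP -0.11 to 0.040, ALDOA -0.002 to 0.12, STAT5B -0.086 to 0.029, DDIT4 -0.051 to 0.10 and TSHZ3 -0.042 to 0.11.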
